A study of Homo sapiens with 4 samples.

Results

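The genes described here are 45 genes of DNA damage signalling and DNA repair, listed by symbol, with earlier results of these data known. They were followed in U87MG, a cell line grown from a human glioblastoma, after transfection with a siRNA against CASP2, the gene of caspase-2, or with a control siRNA. Each of these siRNA groups holds 2 Affymetrix GeneChip Human Gene 1.0 ST arrays of total RNA, which the sample labels call biological replicates, and all 4 arrays come from this 1 cell line grown in DMEM with serum. The labels give no dose, and the sources used here do not state how long after transfection the RNA was isolated. Both groups carried a transfected oligo, so neither shows untreated cells. Of the 45 genes, 41 were measured, each by 1 probe set, a set of short probes that sample the transcripts of a gene, which the platform annotation ties to that gene alone, among 32321 probe sets in all and 18404 genes. BRCA2, FANCA, FANCD2 and ERCC5 had no probe set tied to them alone in the annotation and were not analysed here.

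DNA damage is detected by protein kinases and by proteins that gather at breaks, and it is then removed by pathways that differ in the kind of lesion they accept. ATM and ATR start the signal, and CHEK2 and CHEK1 pass it on to slow the cell cycle. Homologous recombination copies a broken stretch from the sister chromatid, whereas non-homologous end joining ligates the ends directly. Mismatch repair corrects copying errors, the Fanconi anaemia pathway opens crosslinks between the strands, nucleotide excision repair cuts out bulky lesions such as those made by ultraviolet light, and base excision repair replaces single damaged bases and closes single-strand breaks. Several of these genes, among them BRCA1, EXO1, LIG1 and MSH6, are known to be transcribed mainly as cells enter S phase.

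Values are log2 values after Robust Multi-Array Average (RMA) processing. A change is the mean of the CASP2 siRNA arrays minus that of the control siRNA arrays, tested with limma over all probe sets. The silenced gene was checked first. CASP2 stood at 10.74 and 10.69 on the control arrays and at 8.79 and 8.52 on the silenced arrays, a change of -2.06 (SE 0.13), so all arrays matched their labels. The silenced arrays differed from each other more (SD of the difference over all probe sets 0.348) than any silenced array differed from a control array (0.238 to 0.290), and the upper quartile of CASP2 siRNA replicate 2 was 8.58 against 8.66 to 8.69 on the other arrays. Of the 7 mesenchymal and glioma markers, VIM, CD44, FN1 and TNC lay between 11.82 and 13.04 on all arrays and S100A6 between 8.78 and 8.92, but the neural stem cell marker NES (6.36 to 6.58) and the astrocyte marker GFAP (6.34 to 6.79) lay near the array medians. Of the 8 markers of other cell types, CD68, a lysosomal protein that marks macrophages, was as bright as the mesenchymal markers at 12.20 to 12.30, and KRT18, of simple epithelia, lay at 6.46 to 7.53. The other 6 (EPCAM, MBP, PECAM1, PTPRC, RBFOX3 and SYP) lay between 3.10 and 6.29. With 2 arrays in each group, the smallest p that an exact two-sided permutation test allows is 0.333.

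On the control arrays all measured repair genes but NEIL1 lay above the middle of all probe sets, and their median place was percentile 78.5. The 19158 probe sets tied to 1 gene symbol had a median place of percentile 60.3, so lying above the middle was usual for such probe sets. The brightness of a probe set depends on its probes, so these places do not rank amounts of mRNA between genes, and no test was run on them. By pathway the median place ranged from percentile 67.6 for the checkpoint kinases to 87.2 for end joining. APEX1, the endonuclease that cuts at abasic sites, had the highest place (percentile 95.7), next to the Ku subunits XRCC5 (95.1) and XRCC6 (94.7), which bind broken ends. NEIL1, a glycosylase for oxidized bases, had the lowest place (percentile 44.9), followed by CHEK2 (51.7), ATM (60.4) and MUTYH (60.6). ATM and CHEK2, the kinases of the double-strand break response, thus had low places among the measured repair genes. They still lay above the middle of all probe sets. ATR (74.8) and CHEK1 (86.3), which answer stalled replication, had higher places, which does not show that they had more mRNA.

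**Figure D1:**
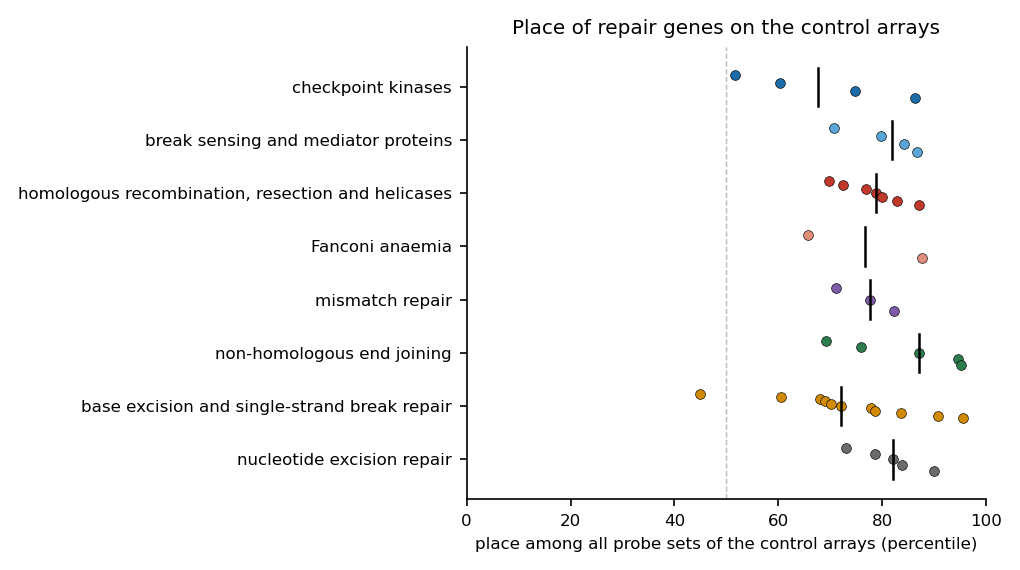
Place of each measured repair gene (points) among all probe sets of the control arrays, as the mean percentile over the 2 control siRNA arrays (x axis), by pathway (y axis), with the median of each pathway as a black line and the middle of the array as a dashed line. All genes but NEIL1 lie above the middle, and APEX1, XRCC5 and XRCC6 lie farthest to the right.

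No repair gene passed the test between the siRNA groups. By limma, 0 of the 41 had an adjusted p under 0.05, the adjusted p of each being 0.9999, and 0 had an unadjusted p under 0.05. Over all probe sets, 0% passed the adjusted test, 3.03% had an unadjusted p under 0.05, and 0.693% had that p together with a change of more than 1.5-fold, the fold that the study required. No repair gene met both limits. The methods' t-test, which holds the standard deviation at or above its median, gave an unadjusted p under 0.05 for 100 probe sets, 72 of them beyond 1.5-fold, an adjusted p under 0.05 for 0, and neither for any repair gene. Without CASP2 siRNA replicate 1, with the lone silenced array assumed to vary like the controls, 14 of the 41 and 6257 of all 32321 probe sets had an unadjusted p under 0.05, and 1 gene, CHEK2, met both limits. Without replicate 2 the same counts were 1, MUTYH, and 3511. The largest changes were 1.23-fold, for BRCA1, and 1.22-fold, for PARP1. For 35 of the 41 the 95% confidence interval of the change lay wholly within 1.5-fold in either direction. The same held for 15871 of the 19158 probe sets with 1 gene symbol. It also held for 10047 of the 11969 of these in the range of levels of the repair genes, so the count was not particular to the repair genes. The intervals of CHEK2, ATM, BRCA1, XRCC4, MUTYH and XPA reached beyond a 1.5-fold decrease, so a change of that size was not excluded for them.

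Most repair genes lay slightly lower in the silenced cells, but mainly on one array. The change was below 0 for 35 of the 41, with a median of -0.11, whereas it was below 0 for 50.3% of all probe sets with 1 gene symbol, with a median of -0.00076. Fewer cells in S phase and less mRNA per cell cannot be told apart in RNA from whole cultures. The study reported no overt change of proliferation, cell cycle or apoptosis in the silenced cells, from data it did not show. Relative to the control mean, the median of the 41 genes was -0.019 on CASP2 siRNA replicate 1 and -0.19 on replicate 2. Replicate 2 lay below both control arrays for 33 genes and replicate 1 for 18, against backgrounds of 41.8% and 39.1% of the probe sets with 1 symbol. The count of replicate 1 was therefore close to its background. Without replicate 2, the median change was -0.019 and 22 of the 41 genes lay below 0; without replicate 1, the median was -0.19 and 38 lay below 0. Of the 11969 probe sets with 1 symbol in the same range of levels, 55.4% had a change below 0. They share this range but were not matched in level, with a median place of percentile 72.1 against 78.5 for the repair genes. Replicate 1 lay below both controls for 4429 of these 11969 and replicate 2 for 6312, so the background of replicate 2 was higher at these levels. Their median was 0.0082 on replicate 1 and -0.048 on replicate 2, so replicate 2 was also low there, by less than in the repair genes. The part of this array in the shift of the repair genes was not tested further.

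**Figure D2:**
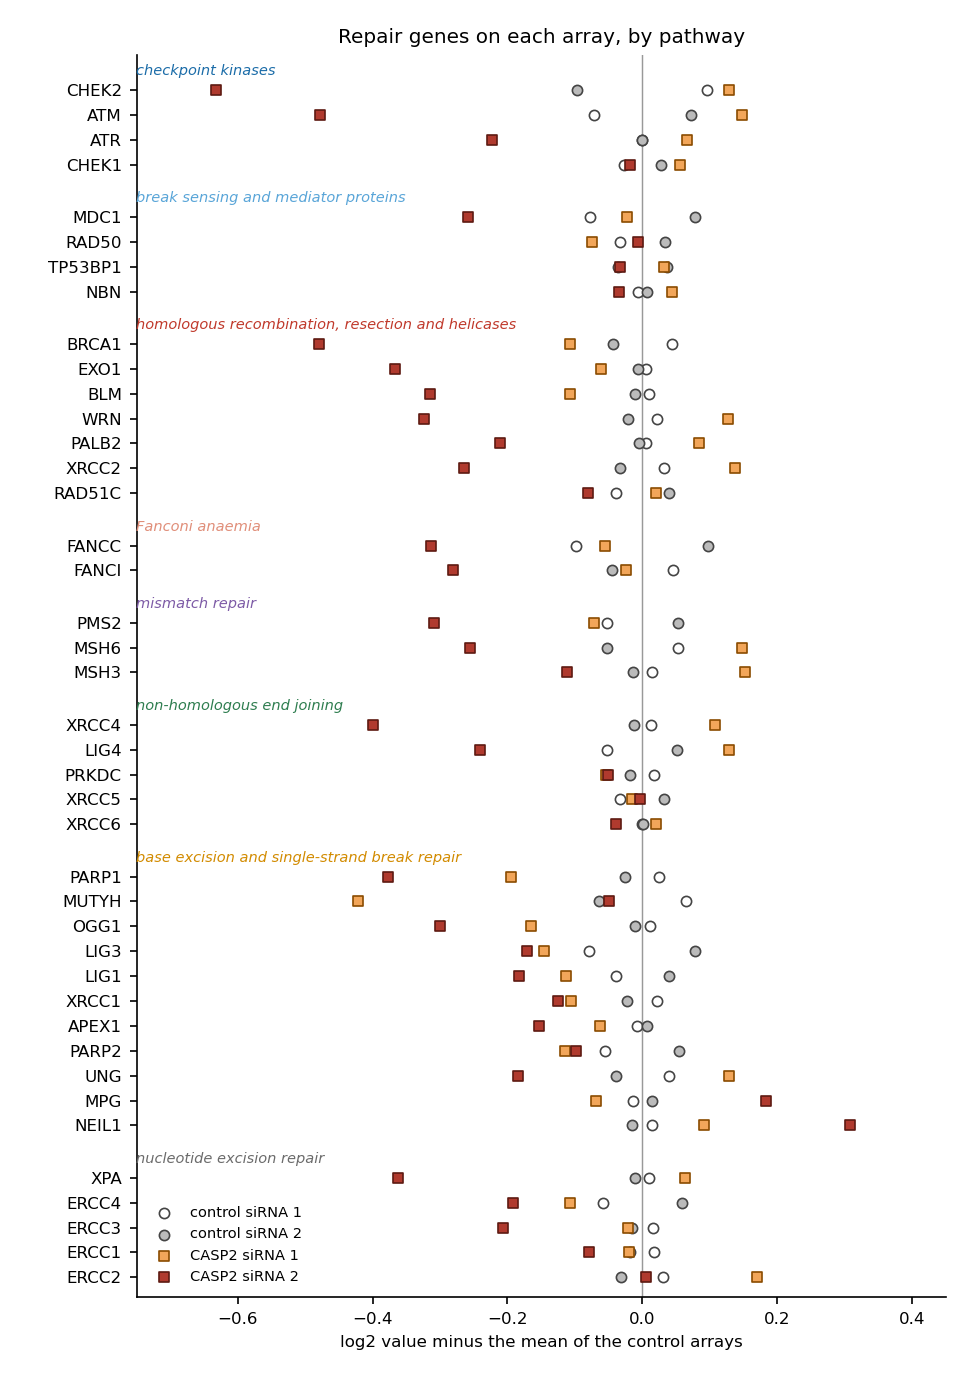
Distance of each of the 4 arrays from the control mean in log2 units (x axis) for the 41 measured repair genes (y axis), grouped by pathway; circles are control siRNA, squares CASP2 siRNA and each point is 1 array. CASP2 siRNA replicate 2 lies far to the left for most genes, as for CHEK2 at -0.63, while both silenced arrays lie left of the controls for most genes of base excision and single-strand break repair.

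In 16 genes the groups did not overlap, so that the silenced arrays lay together beyond the controls. They were lower for 15 (36.6%) and higher for 1, NEIL1, against 16.3% lower and 14.6% higher among all probe sets with 1 symbol. Among those in the range of levels of the repair genes, 19.7% were lower and 13.2% higher. DNA replication genes, described below, were lower in 36.8% and higher in 0%. Probe sets of repair genes outside the 45, also described below, were lower in 30.2% and higher in 4.76%. The share of lower genes was thus not particular to the 41 genes. The 15 lower genes were 7 of the 11 measured in base excision and single-strand break repair (63.6%) and 3 of 5 in nucleotide excision repair (60%). They were also 3 of 7 in homologous recombination (42.9%), 1 of 3 in mismatch repair and 1 of 5 in end joining. None belong to the checkpoint kinases, the break sensing proteins or the Fanconi anaemia genes. With another quantile normalization of the values the counts were 13 lower and 4 higher. With each array left out in turn they ranged from 17 to 33 lower and from 2 to 17 higher. Leaving out an array can only keep or raise these counts, so this range does not test them. The 33 came without CASP2 siRNA replicate 1, where 41.8% of all probe sets with 1 symbol were lower. The 17 came without replicate 2, where 37.4% of them were higher.

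The genes of base excision and single-strand break repair had the lowest median of the 8 pathways on CASP2 siRNA replicate 1. Their median relative to the control mean was -0.11 on CASP2 siRNA replicate 1 and -0.15 on replicate 2, and 8 of the 11 genes lay below 0 on both silenced arrays. For the other 30 repair genes these medians were 0.026 and -0.23, and replicate 1 lay below both controls for 9 of them and above both for 15, against 37.4% above both among probe sets with 1 symbol. The difference between the pathways was not tested, because genes are not replicates of a treatment.

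PARP1, which binds DNA breaks and marks the site with poly(ADP-ribose), had the smallest unadjusted p of the 41 genes. It stood at 9.61 and 9.56 with the control siRNA and at 9.39 and 9.21 with the CASP2 siRNA, so that both silenced arrays lay below both controls. Its change was -0.29 (SE 0.11, 95% confidence interval -0.58 to 0.0050) with an unadjusted limma p of 0.053, and p ranged from 0.023 with trended and robust variances to 0.14 with the methods' t-test among the alternatives that kept all arrays. PARP2, a related enzyme, stood at 8.98 and 9.09 on the control arrays and at 8.92 and 8.94 on the silenced arrays, a change of -0.11 (SE 0.096). OGG1, the glycosylase that removes 8-oxoguanine, stood at 8.18 and 8.16 with the control siRNA and at 8.003 and 7.87 with the CASP2 siRNA. Its change was -0.23 (SE 0.10, interval -0.50 to 0.034), and the gap between the groups was wider than the gap between either pair of replicates.

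XRCC1, the scaffold on which single-strand breaks are closed, stood at 10.50 and 10.46 on the control arrays and at 10.37 and 10.35 on the silenced arrays. LIG3, the ligase that XRCC1 carries, stood at 8.29 and 8.45 on the control arrays and at 8.22 and 8.20 on the silenced arrays. The changes of XRCC1 and LIG3 were -0.12 (SE 0.090) and -0.16 (SE 0.10), and for both the silenced arrays lay closer to each other than the control arrays did. LIG1, the ligase of replication and of long-patch repair, stood at 8.01 and 8.09 with the control siRNA and at 7.94 and 7.87 with the CASP2 siRNA, a change of -0.15 (SE 0.095). APEX1 stood at 11.39 and 11.41 against 11.34 and 11.25, a change of -0.11 (SE 0.094).

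The remaining glycosylases did not share this pattern. MUTYH, which removes adenine paired with 8-oxoguanine, stood at 7.24 and 7.12 on the control arrays and at 6.76 and 7.13 on the silenced arrays, so that only CASP2 siRNA replicate 1 was low. NEIL1 stood at 5.83 and 5.80 with the control siRNA and at 5.90 and 6.12 with the CASP2 siRNA. Its change of 0.20 (SE 0.11, interval -0.11 to 0.51) was the largest increase of the 41 genes, but NEIL1 was also the dimmest. MPG, which removes alkylated bases, stood at 7.94 and 7.97 on the control arrays and at 7.89 and 8.14 on the silenced arrays, on either side of the controls. UNG, which removes uracil, stood at 9.01 and 8.93 on the control arrays and at 9.10 and 8.78 on the silenced arrays, again on either side.

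**Figure D3:**
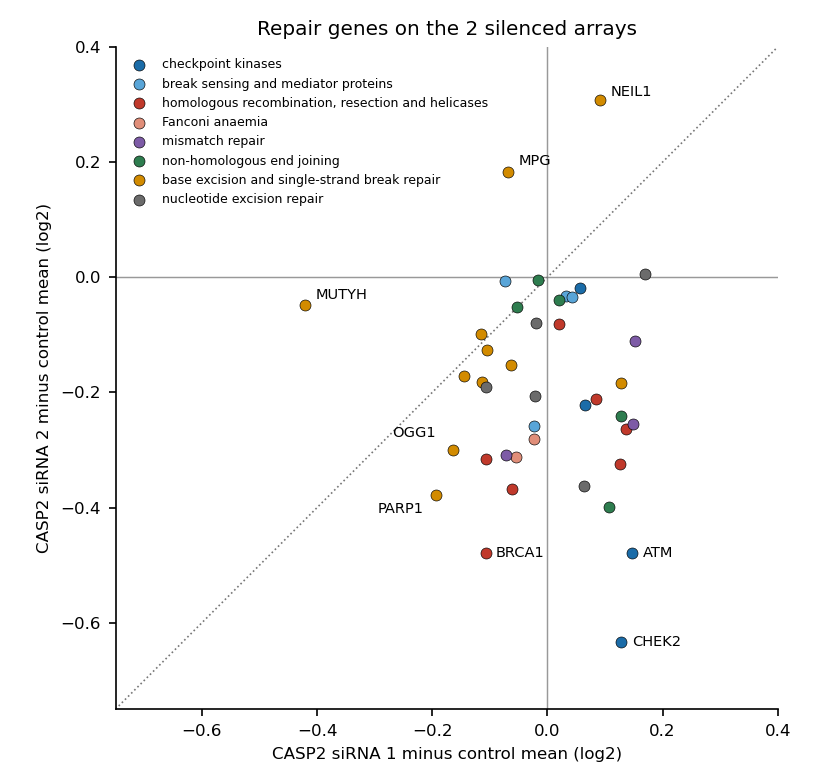
CASP2 siRNA replicate 1 (x axis) against replicate 2 (y axis), each as the log2 value minus the mean of the control arrays, for the 41 measured repair genes; colours are pathways and the dotted line marks equal values. Most genes of base excision and single-strand break repair lie near the line below 0, while ATM and CHEK2 lie right of 0 on replicate 1 and at -0.48 and -0.63 on replicate 2.

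For the checkpoint kinases CHEK2, ATM and ATR, the silenced arrays lay on opposite sides of the controls. CHEK2 stood at 6.45 and 6.26 on the control arrays and at 6.48 and 5.72 on the silenced arrays, a change of -0.25 (SE 0.28, interval -0.99 to 0.49), the widest interval of the 41 genes. ATM stood at 7.09 and 7.23 on the control arrays and at 7.31 and 6.68 on the silenced arrays, a change of -0.17 (SE 0.23). For both kinases CASP2 siRNA replicate 1 was the highest of the 4 arrays and replicate 2 the lowest. ATR stood at 8.64 on each control array and at 8.71 and 8.42 on the silenced arrays, with the same order. CHEK1 stood at 9.85 and 9.90 on the control arrays and at 9.93 and 9.86 on the silenced arrays, a change of 0.019 with an interval of -0.23 to 0.27. The median change of these 4 kinases was -0.35 without CASP2 siRNA replicate 1 and 0.097 without replicate 2, so its direction depended on which silenced array was used.

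The proteins that recognise breaks differed little between the groups. RAD50, a subunit of the MRN complex that tethers broken ends, stood at 9.89 and 9.95 on the control arrays and at 9.85 and 9.91 on the silenced arrays. NBN, a further subunit of MRN, had a change of 0.0042 (interval -0.24 to 0.25) and TP53BP1, which protects ends from resection, a change of -0.00065 (interval -0.25 to 0.25). MDC1, which reads the phosphorylated histone mark beside breaks, stood at 8.14 and 8.30 on the control arrays and at 8.20 and 7.96 on the silenced arrays, so that only replicate 2 lay outside the controls. The median change of these 4 genes was -0.021, the smallest in size of the 8 pathways.

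All 7 measured genes of homologous recombination, resection and the associated helicases had a change below 0, with a median of -0.098. The median was -0.32 on CASP2 siRNA replicate 2 and 0.020 on replicate 1. BRCA1, which promotes the resection of broken ends, stood at 8.45 and 8.36 with the control siRNA and at 8.29 and 7.92 with the CASP2 siRNA, a change of -0.29 (SE 0.16, interval -0.71 to 0.12). The exonuclease EXO1 stood at 8.13 and 8.12 on the control arrays and at 8.06 and 7.76 on the silenced arrays, a change of -0.21 (SE 0.14). BLM, a helicase that dissolves joined chromosomes, stood at 9.07 and 9.05 on the control arrays and at 8.95 and 8.75 on the silenced arrays, a change of -0.21 (SE 0.11). These were the 3 genes of the group whose silenced arrays both lay below both controls, and in each replicate 2 was the lower one.

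In the other 4 genes of homologous recombination CASP2 siRNA replicate 1 lay within or above the controls. XRCC2, which acts in strand exchange, stood at 10.01 and 9.95 on the control arrays and at 10.12 and 9.71 on the silenced arrays. The helicase gene WRN and PALB2, which bridges BRCA1 and BRCA2, had changes of -0.098 (SE 0.18) and -0.064 (SE 0.13), with the same order of arrays. RAD51C, which acts in homologous recombination, had a change of -0.030 (interval -0.29 to 0.23).

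Of the Fanconi anaemia genes, FANCC, of the core complex, stood at 7.61 and 7.81 on the control arrays and at 7.65 and 7.40 on the silenced arrays. FANCI, which the core complex ubiquitinates together with FANCD2, stood at 10.09 and 10.00 on the control arrays and at 10.03 and 9.77 on the silenced arrays. Their changes were -0.18 (SE 0.14) and -0.15 (SE 0.13), and in both replicate 1 lay between the controls. With FANCA and FANCD2 not measured, this pathway rests on 2 genes.

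In mismatch repair, PMS2, which nicks the strand to be corrected, stood at 8.21 and 8.32 on the control arrays and at 8.19 and 7.96 on the silenced arrays, a change of -0.19 (SE 0.12, interval -0.52 to 0.14). PMS2 has near-identical copies in the genome, and 7 further probe sets carry its symbol beside others, so its value may include signal from them. MSH6 and MSH3, which recognise mismatches and small loops, had changes of -0.054 (SE 0.17) and 0.020 (SE 0.13). MSH6 stood at 9.49 and 9.39 on the control arrays and at 9.59 and 9.19 on the silenced arrays, and MSH3 at 8.97 and 8.95 against 9.11 and 8.85, so that in both the silenced arrays lay on either side of the controls. The median change of the 3 genes was 0.15 without replicate 2 and -0.26 without replicate 1.

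In non-homologous end joining, the genes of the Ku subunits differed little between the groups. XRCC5 stood at 11.24 and 11.31 on the control arrays and at 11.26 and 11.27 on the silenced arrays, and XRCC6 at 11.16 and 11.17 against 11.19 and 11.13. Their changes were -0.0097 (interval -0.25 to 0.23) and -0.0088 (interval -0.25 to 0.23). PRKDC, the kinase that Ku recruits to ends, stood at 10.01 and 9.98 on the control arrays and at 9.94 on each silenced array, a change of -0.052 (SE 0.089). LIG4 and XRCC4, which form the ligase of this pathway, were low on CASP2 siRNA replicate 2 alone. LIG4 stood at 8.71 and 8.81 on the control arrays and at 8.89 and 8.52 on the silenced arrays, and XRCC4 at 8.09 and 8.07 against 8.19 and 7.68. The changes were -0.056 (SE 0.16) for LIG4 and -0.15 (SE 0.19) for XRCC4.

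In nucleotide excision repair the median change was -0.11. ERCC4, which forms with ERCC1 the nuclease that cuts on the 5′ side of the lesion, stood at 8.98 and 9.10 with the control siRNA and at 8.93 and 8.85 with the CASP2 siRNA, a change of -0.15 (SE 0.10). ERCC1 itself had a change of -0.049 (interval -0.29 to 0.19). ERCC3 and ERCC2 are the helicases of the transcription factor TFIIH, which open the DNA around the lesion. ERCC3 stood at 10.38 and 10.35 on the control arrays and at 10.34 and 10.16 on the silenced arrays, whereas ERCC2 stood at 9.63 and 9.57 against 9.77 and 9.61, and their changes were -0.11 (SE 0.11) and 0.088 (SE 0.11). XPA, which verifies the lesion, stood at 8.48 and 8.46 on the control arrays and at 8.53 and 8.11 on the silenced arrays, a change of -0.15 (SE 0.17) that came from replicate 2 alone.

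**Figure D4:**
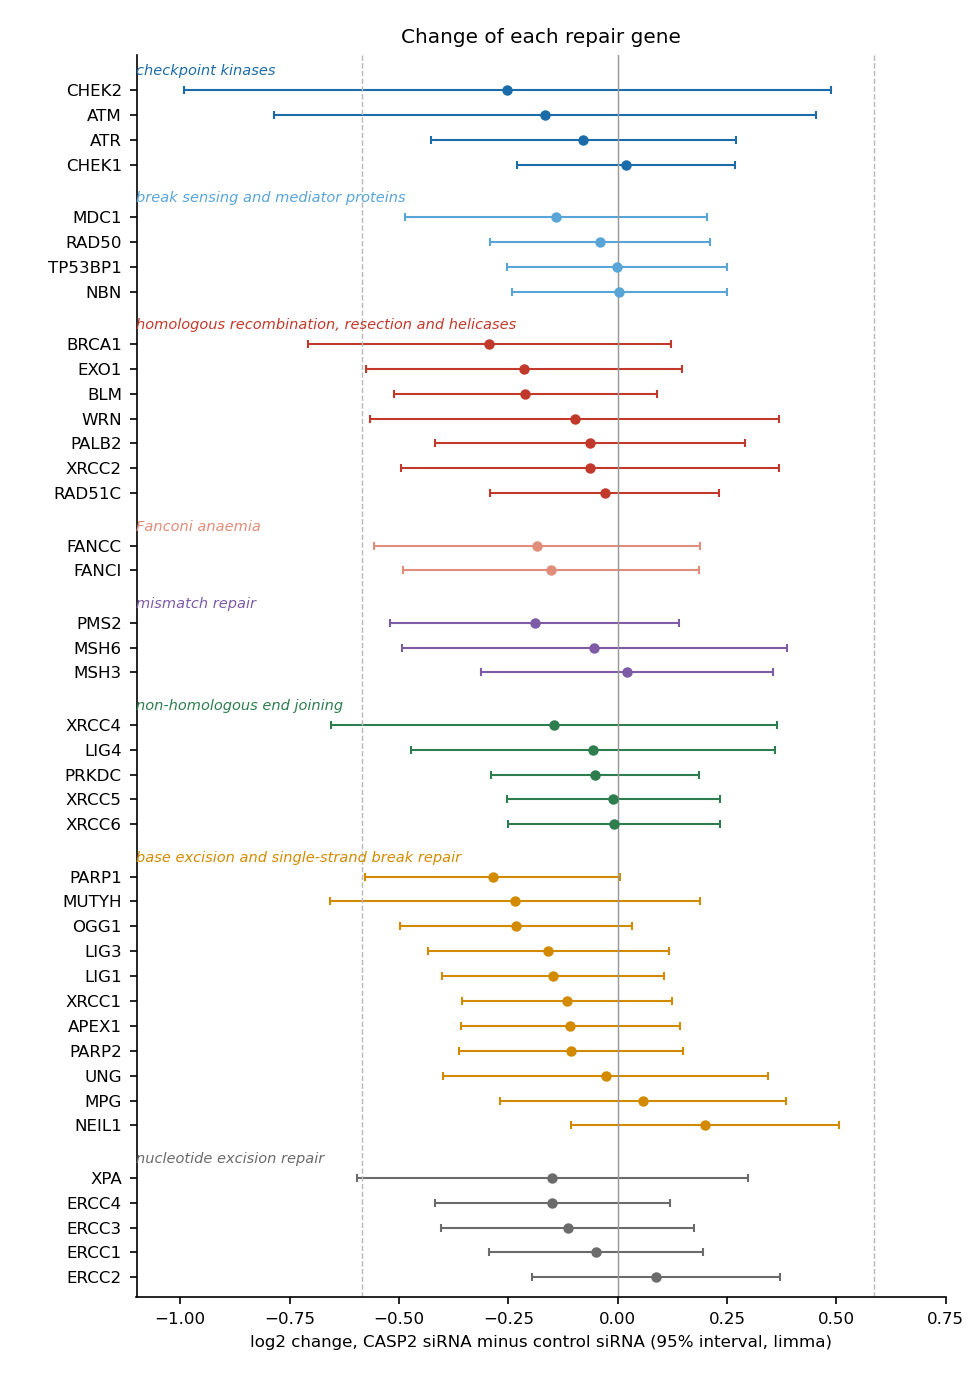
Change of each measured repair gene as the log2 mean of the CASP2 siRNA arrays minus that of the control siRNA arrays (x axis), with limma 95% confidence intervals as bars, by pathway (y axis); dashed lines mark 1.5-fold. Every interval includes 0, that of PARP1 ends at 0.0050, and those of CHEK2 and ATM are the widest.

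Further repair genes outside the 45 also lay lower mainly on one array. Of 59 measured, 46 had a change below 0, and the median was -0.11, with 0.015 on CASP2 siRNA replicate 1 and -0.22 on replicate 2. Of their 63 probe sets, 2 (3.17%) had an unadjusted limma p under 0.05, both lower, which is close to the 3.03% of all probe sets. They are described as the genes with the smallest p of this list. SMUG1, a uracil glycosylase of base excision repair, stood at 8.004 and 8.02 on the control arrays and at 7.67 and 7.46 on the silenced arrays, a change of -0.44 (SE 0.11, interval -0.75 to -0.14). EME1, a subunit of a nuclease that resolves recombination intermediates, stood at 7.73 and 7.67 on the control arrays and at 7.49 and 7.23 on the silenced arrays, a change of -0.34 (SE 0.12, interval -0.67 to -0.0063). After adjustment over all probe sets, limma gave each an adjusted p of 0.9999. The methods' t-test gave neither an unadjusted p under 0.05 (0.066 for SMUG1 and 0.12 for EME1), and EME1 also missed it with trended and robust variances (0.060), centring (0.065) and a replicate block (0.052). The other glycosylases of this list did not all share the direction of SMUG1. NTHL1, NEIL3 and MBD4 had changes of -0.29, -0.15 and -0.063, whereas TDG and NEIL2 had changes of 0.31 and 0.061.

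Repair genes known to be transcribed in S phase were also compared with the others. Of the 9 measured (CHEK1, BRCA1, XRCC2, BLM, EXO1, FANCI, MSH6, UNG and LIG1), 8 had a change below 0, with a median of -0.15, and for the other 32 genes the median was -0.10. On CASP2 siRNA replicate 1 the medians were -0.023 and -0.017, and on replicate 2 they were -0.26 and -0.16. All 9 lay lower on replicate 2 than on replicate 1, as did 53.4% of the probe sets with 1 symbol. So did 25 of the other 32 genes and 57 of the 63 probe sets of repair genes outside the 45. Of the 11969 probe sets with 1 symbol in the range of levels of the repair genes, 7730 did. Genes of DNA replication that share this timing, fixed as a list of 19, all had a change below 0, with a median of -0.12, and their medians on the silenced arrays were -0.017 and -0.23. GINS1, a subunit of the replicative helicase, stood at 8.92 and 8.90 on the control arrays and at 8.65 and 7.91 on the silenced arrays, a change of -0.63 (SE 0.26), and MCM3, a further subunit, had a change of -0.19 (SE 0.11). The low values of replicate 2 thus extended beyond the repair genes. None of the 19 had an unadjusted limma p under 0.05, although GINS1 did with a replicate block (0.036) and with trended and robust variances (0.040), as did MCM3 with the latter (0.045).

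**Figure D5:**
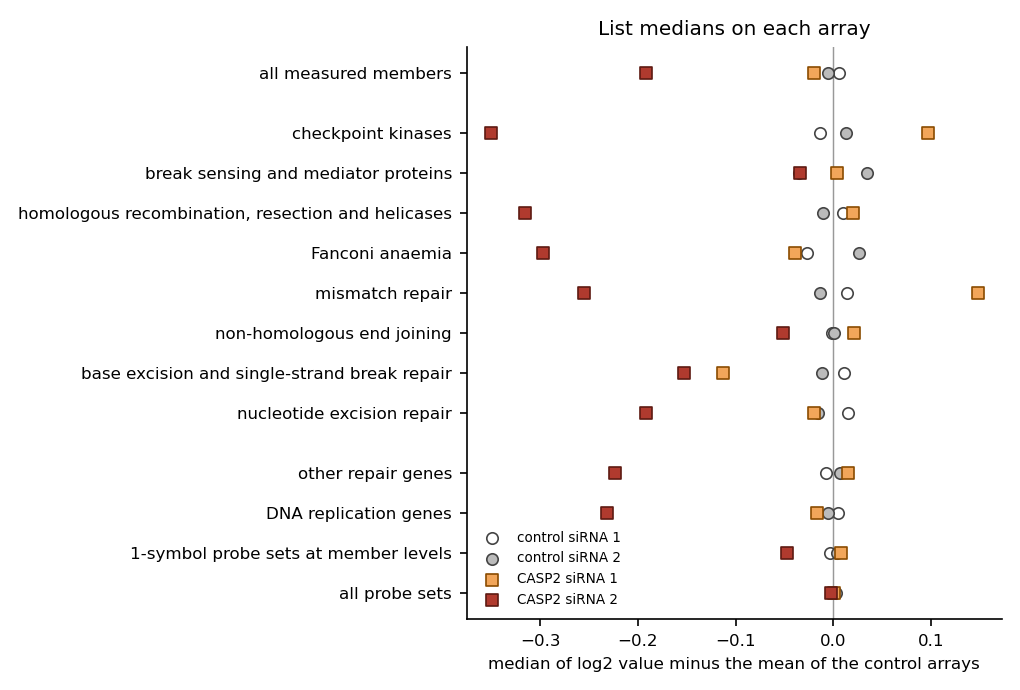
Median distance from the control mean in log2 units on each array (x axis) over each list (y axis), where each point is 1 array. The lists are the measured repair genes, the repair pathways, the other repair genes and DNA replication genes. Below them are probe sets with 1 symbol in the range of levels of the repair genes, not matched in level, and all probe sets. CASP2 siRNA replicate 2 lies at -0.19 for the measured repair genes and at -0.0017 for all probe sets, and replicate 1 stands apart on the low side in base excision and single-strand break repair, at -0.11.

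Transcription in S phase is driven by E2F factors, so the promoters of the repair genes were searched for the E2F consensus, spelled TTTCCCGC, TTTCGCGC, TTTGCCGC or TTTGGCGC, on both strands. The window ran from 250 bases before to 50 after the first listed start of each gene in RefSeq (GRCh38.p14) and was given for 36 of the 41 genes. Only this start was searched, so a gene counted without a match may hold one at another start. Of these, 8 (22.2%) held a match, compared with 4.53% of 14230 genes with a probe set and a window, and 3.33% of all 27305 windows. They were XRCC2, EXO1, FANCC, MSH3, MSH6, PMS2, XRCC6 and LIG1, 4 of the 8 S phase genes with a window and 4 of the other 28. The stretches around the matches that lie before the gene start are shown, because they place matches to the same consensus, in different spellings, in promoters of genes whose arrays differed in order. LIG1 and PMS2 had silenced arrays that both lay below the controls, and FANCC and MSH3 did not. Capitals mark every match to the consensus on either strand within the stretch shown, and a second match in FANCC lies nearer the gene start, outside its stretch.
LIG1 (chr19:48170405-48170504, minus strand): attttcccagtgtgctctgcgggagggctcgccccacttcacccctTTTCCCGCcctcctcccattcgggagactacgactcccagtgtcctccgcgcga
PMS2 (chr7:6009107-6009195, minus strand): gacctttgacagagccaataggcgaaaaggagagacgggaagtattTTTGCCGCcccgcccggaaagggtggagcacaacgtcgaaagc
FANCC (chr9:95317828-95317927, minus strand): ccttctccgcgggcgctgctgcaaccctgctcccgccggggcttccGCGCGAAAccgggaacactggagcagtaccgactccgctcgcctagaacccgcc
MSH3 (chr5:80654499-80654598, plus strand): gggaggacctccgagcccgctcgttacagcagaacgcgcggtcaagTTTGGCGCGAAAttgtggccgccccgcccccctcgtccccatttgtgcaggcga

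In LIG1 the match starts 114 bases before the gene start and in PMS2 43 bases before it. In MSH3, 2 matches on opposite strands overlap, and the first starts 107 bases before the gene start. The median change was -0.11 for the 8 repair genes with a match and also -0.11 for the 28 without, while for all genes with a probe set it was -0.033 with a match and -0.0021 without. Among the repair genes, holding a match in the window searched therefore did not go along with a lower value. A match is a description of the sequence and does not show that an E2F factor binds there.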

How the data were processed

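The authors hybridized total RNA of U87MG cells to Affymetrix GeneChip Human Gene 1.0 ST arrays, 2 per siRNA, and normalized them by RMA (version not given in the sources used here). They deposited a log2 value for every probe set on each array. RMA equalizes probe values between arrays and compresses folds near background. Groups and replicate numbers came from the sample titles.

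Probe sets with 1 symbol in the platform annotation (19158) were named, with symbols updated by gene ID through RefSeq (GRCh38.p14) for 19128. All 32321 probe sets were fitted with limma 3.58.1 in R 4.3.3 (lmFit and eBayes, two-sided, Benjamini-Hochberg over all; prior degrees of freedom 2.47, residual 2). Lists are described by counts and medians. The fit was tested on simulated data. Precision is limited by the number of arrays, and p-values measure the spread between these arrays only, whose separate cultures the labels do not describe further.

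The 45 genes, the lists and the tests were chosen with earlier results of these data known. By rule, array values are given for genes with an unadjusted p under 0.05, for the gene with the smallest p and those of highest and lowest place in each pathway, and for the 2 context genes with the smallest p per list; other genes were added after their values were seen. Alternatives were trended and robust variances, the methods' t-test (pooled standard deviation raised to its median), another quantile normalization, centring on the median, leaving out dim probe sets (lowest 25%), the brightest probe set, a replicate block and each array left out. A further gene list is not reported here.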

Additional observations from a re-analysis of the deposited data

How the results depend on the processing

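The main limit is the number of arrays, since 1 silenced array decides most of the downward shift of the repair genes. Leaving out 1 array at a time, the count of the 41 genes with an unadjusted p under 0.05 ranged from 0 to 14, that with this p and more than 1.5-fold from 0 to 1, that of lower genes without overlap from 17 to 33 and that of higher ones from 2 to 17. The adjusted count over all probe sets was 0 in every setting. The counts without overlap can only stay or rise when an array is left out, so their range does not test them. The median change of the repair genes ranged from -0.191 to -0.0194. By pathway it ranged from -0.351 to 0.0972 for the checkpoint kinases, -0.0554 to 0.00437 for break sensing, -0.315 to 0.0204 for homologous recombination, -0.297 to -0.0393 for Fanconi anaemia, -0.255 to 0.148 for mismatch repair, -0.0513 to 0.021 for end joining, -0.161 to -0.100 for base excision and -0.191 to -0.0194 for nucleotide excision repair. In these runs the sign of the change turned for ATM (-0.478 to 0.148), ATR (-0.223 to 0.0658), CHEK1 (-0.0181 to 0.0561), CHEK2 (-0.633 to 0.129), LIG4 (-0.241 to 0.128), MPG (-0.0685 to 0.183), MSH3 (-0.111 to 0.152), MSH6 (-0.255 to 0.148), NBN (-0.0351 to 0.0434), PALB2 (-0.212 to 0.0839), RAD51C (-0.0803 to 0.0204), TP53BP1 (-0.0372 to 0.0359), UNG (-0.184 to 0.129), WRN (-0.324 to 0.127), XPA (-0.362 to 0.063), XRCC2 (-0.264 to 0.137), XRCC4 (-0.399 to 0.108), XRCC5 (-0.0424 to 0.023) and XRCC6 (-0.0386 to 0.021).

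Trended and robust variances, and also another quantile normalization, each left 1 gene, PARP1, with an unadjusted p under 0.05. With the quantile normalization the median change of the 41 genes was -0.0774, and 32 of them lay below 0. With centring this median was -0.126, and 37 lay below 0. The quantile normalization gave 4 higher genes without overlap and turned the sign of RAD51C (0.000479), TP53BP1 (0.0277) and UNG (0.00374). Centring turned that of CHEK1 (-0.000687) and NBN (-0.0155). The cause was not tested. The methods' t-test and leaving out dim probe sets changed no sign and no count of the 41 genes, and the brightest probe set of a gene was its only one. Deviations of arrays with the same replicate number correlated with r = 0.020, so these arrays showed no shared shift. The labels do not state whether they were prepared together, which this value cannot decide. With a replicate block, 0 of the 41 genes and 965 probe sets in all had an unadjusted limma p under 0.05. Outside the 41 genes, leaving out 1 array moved the count with an unadjusted p under 0.05 from 0 to 23 of the 63 probe sets of other repair genes and from 0 to 5 of the 19 DNA replication genes, the most without CASP2 siRNA replicate 1 in both.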
